A study of Mus musculus with 12 samples.

Results

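Genes of red blood cell formation and heme synthesis were followed in the livers of newborn mice. The group was a named list of 30 genes, chosen by function and with earlier results of these data known. It held erythroid transcription factors, the erythropoietin receptor, proteins of the red cell membrane, blood group proteins, maturation proteins and the enzymes of heme synthesis. Of the 30 genes, 29 were measured among 23185 genes with a symbol, and Ahsp, the chaperone of alpha globin, was not analysed here.

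The samples were 12 livers, each on its own array, from mice killed at 5 days of age. LKB1 KO livers (n = 3, Cre positive) lacked the kinase gene Lkb1 (official symbol Stk11) in the liver, and LKB1 WT livers (n = 3, Cre negative) were their controls. RbpJk KO livers (n = 3, Cre positive) lacked RbpJk (official symbol Rbpj), the DNA-binding protein through which Notch receptors act on genes, and RbpJk WT livers (n = 3, Cre negative) were their controls. The labels name neither the promoter that drives Cre nor the strain, litter or array date of any mouse, and strain, litter and date cannot be told apart from the difference between the LKB1 and RbpJk arms. Where nothing says how the mice of a group are related, p-values measure the spread between these samples. All levels below are log2 expression, where a step of 1 is a doubling of signal. Changes are given with their SE from limma, and a gene was called where its p, adjusted by Benjamini-Hochberg over all 23185 genes, was under 0.05.

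The liver is the main site of red cell formation in the fetus. After birth the process moves to the bone marrow and spleen, and the erythroblasts left in the liver decline over the first days of life. In an erythroblast, Gata1, Tal1 and Klf1 switch on the globins, the membrane proteins and Alas2, the erythroid enzyme that opens heme synthesis. The later enzymes of the pathway are made in hepatocytes too, where Alas1 takes the place of Alas2. The RNA came from whole liver, in which fewer erythroid cells and less RNA per erythroid cell cannot be told apart.

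Labels were checked first. Stk11 fell in LKB1 KO livers (log2 change -0.80 ± 0.15, adjusted p = 0.0224). Rbpj, a dim gene, was at 4.61, 4.48 and 3.92 in RbpJk KO livers and 4.84, 5.05 and 5.31 in RbpJk WT livers, without overlap and without a call (log2 change -0.73 ± 0.19, adjusted p = 0.0724). Hepatocyte markers were bright on every array. The summed level of a list is the log2 of the sum of its genes' signals before the log, so the brightest genes weigh most. For 9 hepatocyte markers it lay between 15.26 and 15.39. All mice are labelled male, yet Xist was high (10.63 to 10.75) on 1 of 3 LKB1 KO, 3 of 3 LKB1 WT, 0 of 3 RbpJk KO and 2 of 3 RbpJk WT arrays. RbpJk WT 1 also stood apart in Ctrb1, a digestive enzyme gene of the pancreas, at 10.44 against at most 6.75 on the other 11 arrays.

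Promoter sequence is shown for 6 members picked as examples, as the 120 bases that precede the RefSeq start (GRCm38.p6). Capitals mark matches to the GATA motif (GATA with A or T before it and A or G after it, on either strand) and to the CACCC motif (CCNCNCCC, on either strand), the letters that Gata1 and Klf1 are known to prefer. The regions are chr8:84901862-84901981, plus strand for Klf1, chr4:134864416-134864535, plus strand for Rhd, chr6:41704326-41704445, minus strand for Kel, chrX:150547297-150547416, plus strand for Alas2, chr16:58670088-58670207, plus strand for Cpox and chr4:62519910-62520029, minus strand for 1 of the windows of Alad.
Klf1: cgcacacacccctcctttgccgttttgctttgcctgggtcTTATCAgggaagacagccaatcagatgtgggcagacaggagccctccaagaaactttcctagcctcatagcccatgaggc
Rhd: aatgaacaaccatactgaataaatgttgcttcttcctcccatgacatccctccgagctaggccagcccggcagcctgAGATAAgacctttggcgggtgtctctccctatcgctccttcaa
Kel: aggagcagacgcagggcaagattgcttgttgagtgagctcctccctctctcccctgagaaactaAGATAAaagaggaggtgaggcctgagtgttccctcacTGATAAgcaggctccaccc
Alas2: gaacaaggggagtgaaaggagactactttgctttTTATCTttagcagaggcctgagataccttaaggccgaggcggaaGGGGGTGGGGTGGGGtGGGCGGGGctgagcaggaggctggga
Cpox: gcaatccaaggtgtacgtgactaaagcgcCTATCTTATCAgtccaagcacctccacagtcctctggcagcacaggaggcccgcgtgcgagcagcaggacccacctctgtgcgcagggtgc
Alad: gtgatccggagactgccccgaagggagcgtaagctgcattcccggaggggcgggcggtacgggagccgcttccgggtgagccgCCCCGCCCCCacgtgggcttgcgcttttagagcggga
Klf1, Rhd, Kel, Alas2 and Cpox hold GATA letters in the stretch shown, whereas Alad holds CACCC letters alone. The 6 do not stand for the list, since stretches of this length in other members, such as both windows of Tal1, hold no GATA match. Over 250 bases before the start, 14 of the 23 members with a window (60.9%) had a GATA match. By window this was 53.8% of 26, against 26.5% of all 32851 RefSeq windows of the same length. CACCC letters were found in 53.8% of the members' windows and 45.9% of all windows. The letters preferred by Rbpj (TGGGAA with G or A before it, on either strand) were found in 11.5% of the members' windows and 9.52% of all windows, and the members were Alad and Uros. A match is a run of letters and not a measured binding site, and neighbouring matches can share bases, as they do in Cpox and Alas2.

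**Figure D1:**
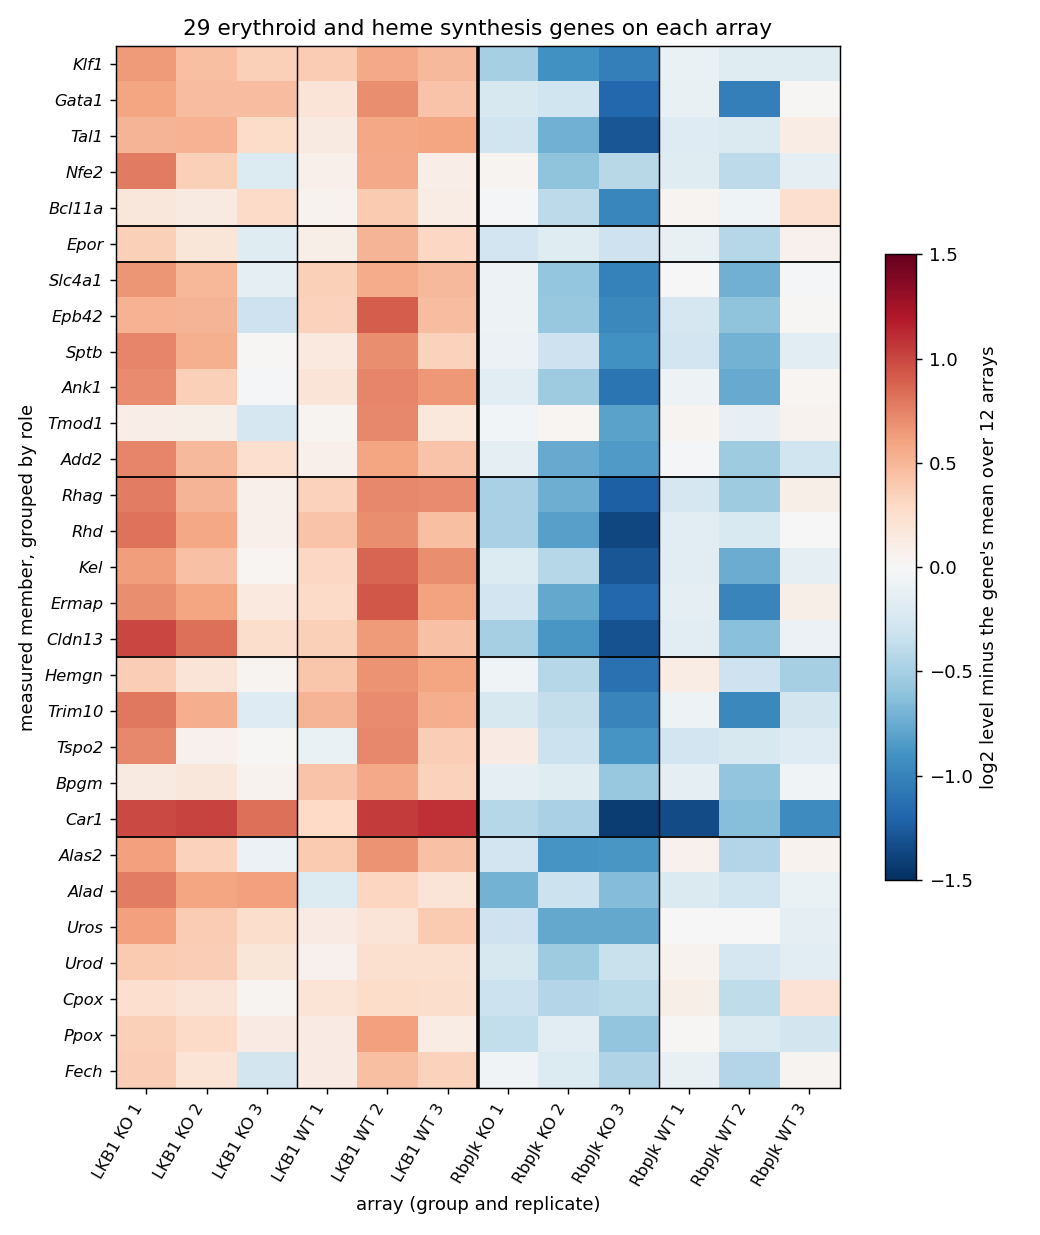
Heat map of the 29 measured members (rows, grouped by role) on the 12 arrays (columns), coloured by log2 level minus the gene's mean over 12 arrays. Most rows are above their mean in the LKB1 arm and below it in the RbpJk arm, and RbpJk KO 3 holds the lowest value of 12 arrays for 22 of 29 members.

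In LKB1 KO livers the erythroid genes had small changes of both signs against LKB1 WT livers. Of 29 members, 0 were called by limma, where 0.962% of all genes were called in either direction, and 1 had an unadjusted p under 0.05, where 8.05% of all genes did. The median log2 change of the members was -0.07, beside -0.01 for all genes, and 11 changes were positive and 18 negative. The sign of this median turned with single arrays, since it was 0.06 without LKB1 KO 3 and 0.05 without LKB1 WT 2, against -0.19 without LKB1 KO 1 and -0.15 without LKB1 WT 1. The 5 transcription factors had changes between -0.0012 for Tal1 and 0.07 for Nfe2, a factor shared with megakaryocytes.

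Klf1, which activates adult globin and membrane genes, is an example. It was at 7.08, 6.90 and 6.81 in LKB1 KO livers and at 6.83, 7.01 and 6.93 in LKB1 WT livers, so the ranges overlapped (log2 change 0.01 ± 0.14). Slc4a1, the anion exchanger of the red cell membrane and the brightest of the membrane genes, was at 10.91, 10.75 and 10.11 in LKB1 KO livers and at 10.60, 10.81 and 10.73 in LKB1 WT livers (log2 change -0.12 ± 0.24). The low array was LKB1 KO 3, which held the lowest value of the arm for 19 of 29 members.

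Alad, whose enzyme joins aminolevulinate molecules into porphobilinogen, was the member furthest from 0. It was at 10.20, 10.03 and 10.05 in LKB1 KO livers and at 9.23, 9.77 and 9.64 in LKB1 WT livers. All 3 LKB1 KO arrays lay above all 3 LKB1 WT arrays, a pattern that 7.77% of all genes showed. The log2 change of 0.55 ± 0.14 missed the threshold (adjusted p = 0.0897). Alad was called in 4 of 14 alternatives, with array weights, after a filter on dim genes, after quantile normalization and after median centring. It was not called with Xist class as a covariate. Over the 14 the change lay between 0.39 and 0.66 and the limma adjusted p between 0.0253 and 0.319. Alad alone among the heme enzymes was without overlap, and the changes of the other 6 lay between -0.21 (Fech, which inserts the iron) and 0.18 (Uros).

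Hemgn and Bpgm lay lower in LKB1 KO livers without overlap, a pattern that 8.60% of all genes showed in this direction, and neither was called. Hemgn, a nuclear protein of erythroid cells, was at 8.97, 8.80 and 8.65 in LKB1 KO livers and at 9.02, 9.28 and 9.19 in LKB1 WT livers (log2 change -0.36 ± 0.22). Bpgm, which makes the bisphosphoglycerate that lowers the oxygen affinity of hemoglobin, was at 6.42, 6.45 and 6.33 in LKB1 KO livers and at 6.71, 6.86 and 6.63 in LKB1 WT livers (log2 change -0.33 ± 0.16). Beside the members' values, all 12 macrophage markers had a negative change (median -0.25), 0 were called by limma and 6 had an unadjusted p under 0.05, with summed levels of 11.56 to 11.65 in LKB1 KO and 11.85 to 11.89 in LKB1 WT livers. Of 13 proliferation genes 12 had a positive change and 6 lay above without overlap, where 7.77% of all genes lay above in this way. Their summed levels were 11.92 to 12.05 in LKB1 KO and 11.63 to 12 in LKB1 WT livers. The 11 neutrophil granule markers had a median of -0.27, at summed levels of 12.78 to 13 in LKB1 KO and 12.89 to 13.33 in LKB1 WT livers. Of 9 hepatocyte markers 6 lay below without overlap, at 15.26 to 15.29 in LKB1 KO and 15.35 to 15.38 in LKB1 WT livers. In these lists 0 genes were called by limma, and 4 proliferation, 4 neutrophil and 2 hepatocyte genes had an unadjusted p under 0.05. Of all genes 8.05% had an unadjusted p under 0.05. The part of these cells in the erythroid values was not tested.

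Deletion of RbpJk was accompanied by lower values of nearly all members, of which 1 was called. Klf1 fell 1.58-fold (log2 change -0.66 ± 0.14, adjusted p = 0.0275), at 5.95, 5.54 and 5.42 in RbpJk KO livers and at 6.35, 6.27 and 6.27 in RbpJk WT livers, so that all KO arrays lay below all controls. In this direction 0.565% of all genes were called, and 1.68% in either direction. The change was negative for 28 of 29 members, with a median of -0.30 beside -0.03 for all genes, of which 45.1% had a positive change. An unadjusted p under 0.05 was reached by 11 members, where 14.5% of all genes reached it. These members vary together from array to array, so their shared sign is not a count of separate observations.

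The call of Klf1 rested on the arrays and on the fit. With Xist class as a covariate its change was -0.71 (adjusted p = 0.109), and 1 class of Xist held all 3 RbpJk KO arrays and RbpJk WT 2. With the 6 arrays of the arm fitted alone the adjusted p was 0.176, and over the arrays left out in turn it lay between 0.00762 and 0.12, the lowest being that without RbpJk KO 1 and the only one of the 6 under the threshold. When RbpJk WT 1, where Ctrb1 was high, was left out, the change of Klf1 was -0.63 (adjusted p = 0.0648) and the median of the members -0.19.

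The groups did not overlap for 5 members, Klf1, Tal1, Rhd, Alad and Uros, and 8.0% of all genes lay below their controls in this way. Tal1, the partner of Gata1 in erythroid gene activation, was at 5.55, 5.13 and 4.57 in RbpJk KO livers and at 5.66, 5.64 and 5.96 in RbpJk WT livers (log2 change -0.67 ± 0.21, adjusted p = 0.147). Rhd, the Rh blood group protein, had the lowest change of the list, with 7.36, 7.03 and 6.48 in RbpJk KO livers and 7.67, 7.62 and 7.84 in RbpJk WT livers (log2 change -0.76 ± 0.21, adjusted p = 0.0934). Uros, which closes the porphyrin ring, was at 5.70, 5.25 and 5.25 in RbpJk KO livers and at 6.01, 6.00 and 5.88 in RbpJk WT livers (log2 change -0.57 ± 0.15, adjusted p = 0.0783). In Tal1, Rhd and Uros RbpJk KO 1 was the KO array closest to the controls.

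**Figure D2:**
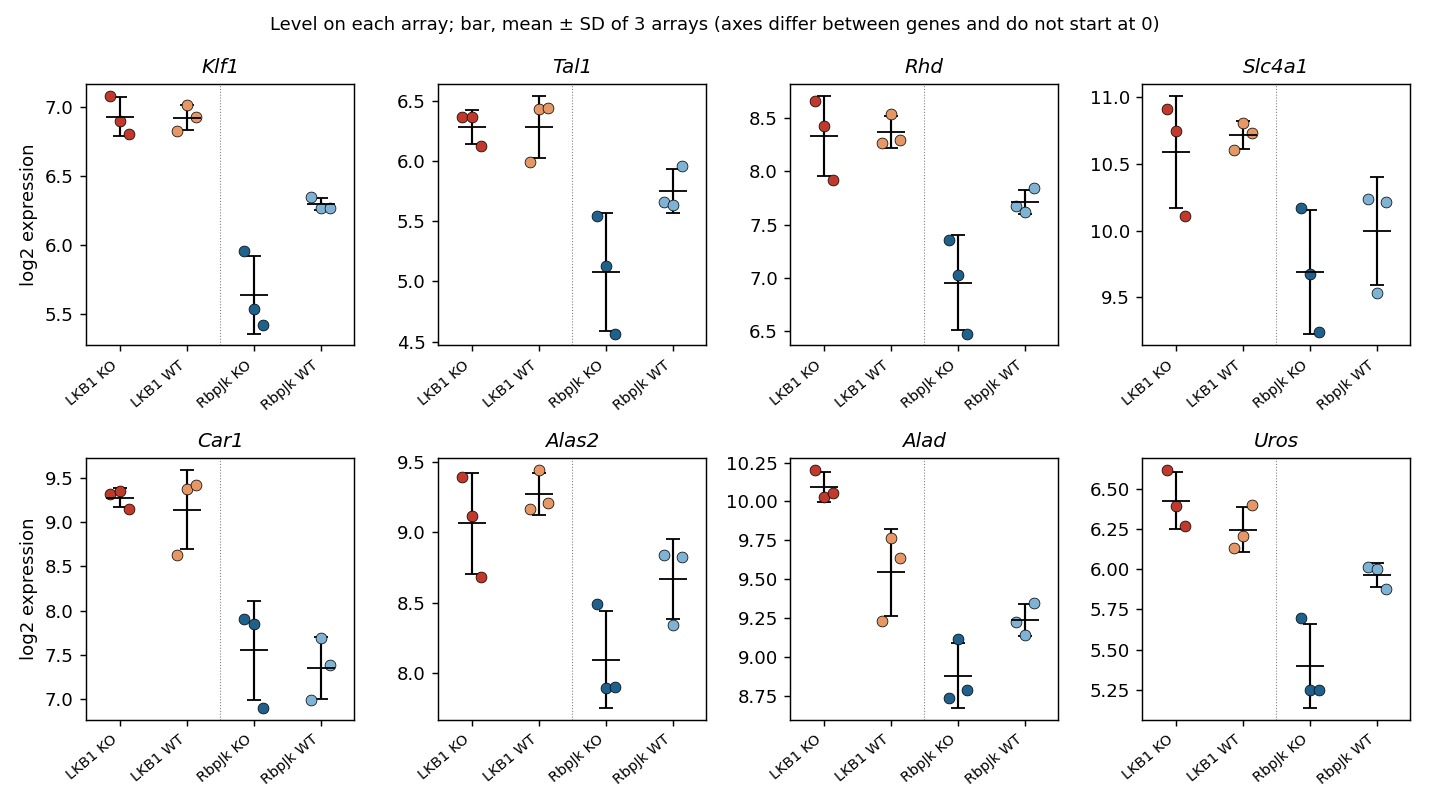
Log2 expression of 8 members on each array, in panels of 4 groups with KO left of WT in each arm, where the bar gives the mean and SD of 3 arrays and the axes differ between genes. Klf1, Tal1, Rhd, Alad and Uros lie lower without overlap in RbpJk KO than in RbpJk WT livers, and Alad lies higher without overlap in LKB1 KO than in LKB1 WT livers.

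By role, the changes in RbpJk KO livers were furthest from 0, by median, among the transcription factors and blood group proteins. The 5 transcription factors had a median of -0.54, from -0.67 for Tal1 to -0.09 for Nfe2, with Gata1 at -0.20 ± 0.27. That median is the value of Bcl11a, the repressor of embryonic globin genes (-0.54 ± 0.20). The 5 blood group and surface proteins had a median of -0.58, with Rhag, the partner of the Rh protein, at -0.58 ± 0.21 and Cldn13, a claudin, at -0.60 ± 0.22. Kel, the Kell blood group protease, was at -0.29 ± 0.26, and Ermap, an erythroblast membrane protein, at -0.40 ± 0.27. Among these, Klf1 alone passed the test.

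The 7 heme enzymes had a median of -0.36, and all 7 changes were negative without a call. Alas2 was at 8.49, 7.90 and 7.90 in RbpJk KO livers and at 8.84, 8.34 and 8.83 in RbpJk WT livers, and the ranges overlapped through RbpJk KO 1 (log2 change -0.57 ± 0.20, adjusted p = 0.186). Alad was at 8.73, 9.12 and 8.79 in RbpJk KO livers and at 9.23, 9.14 and 9.34 in RbpJk WT livers (log2 change -0.36 ± 0.14, adjusted p = 0.234). The values were -0.36 for Cpox, -0.25 for Urod, -0.22 for Ppox and -0.06 for Fech.

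The membrane and maturation genes were nearer to 0 by median, and 0 of these 11 were called or had an unadjusted p under 0.05 in limma. The 6 genes of the membrane and its skeleton had a median of -0.28, from -0.33 for Ank1, which ties the skeleton to the anion exchanger, to -0.05 for the spectrin gene Sptb. For Slc4a1 the levels were 10.17, 9.67 and 9.24 in RbpJk KO livers and 10.24, 9.53 and 10.22 in RbpJk WT livers, with RbpJk WT 2 inside the KO range. The 5 maturation genes measured had a median of -0.09, and Car1, a carbonic anhydrase, was the member with a positive change (0.20 ± 0.26). Epor, the erythropoietin receptor, was at -0.10 ± 0.17.

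RbpJk KO 3 stood apart from the other KO arrays. It was the lowest of all 12 arrays for 22 of 29 members, and without it the median change was -0.08, with 20 of 29 negative, in place of -0.30. Without RbpJk WT 2, the lowest control, 19 members lay below their controls without overlap in place of 5. With an array fewer the groups of any gene separate more readily, and the share of all genes was not counted there. Without RbpJk KO 1, 4 members were called (Klf1, Tal1, Rhd and Uros). RbpJk WT 2 was also the control with low Xist. The part of Xist class in the members' change was not tested beyond the covariate, with which the median was -0.28.

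Markers of other blood cells moved in the same comparison. All 8 measured B cell precursor markers had a negative change (median -0.64). Their summed level lay between 7.72 and 8.17 in RbpJk KO livers and between 8.29 and 8.90 in RbpJk WT livers. Of the 8, 3 fell (Igll1, Vpreb3 and Rag1), where 0.565% of all genes were called in this direction. These 3 were dim, at 3.65 to 4.46 in RbpJk KO livers and 4.61 to 5.74 in RbpJk WT livers. Of 11 neutrophil granule markers, 0 were called by limma and 1 had an unadjusted p under 0.05, with summed levels of 13.56 to 13.95 in RbpJk KO livers and 13.49 to 13.72 in RbpJk WT livers. Among 12 markers of macrophages, which form the islands on which erythroblasts mature, Cd5l rose (log2 change 0.70 ± 0.14) and Adgre1 fell (-0.44 ± 0.10). The part of these cells in the erythroid values was not tested.

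The effects of the knockouts were then set against each other, as the change in the LKB1 arm minus the change in the RbpJk arm. By limma 0 of 29 members were called, where 0.181% of all genes were, and 7 had an unadjusted p under 0.05, where 9.13% of all genes did. Alad stood furthest from 0, with a difference of 0.91 ± 0.19 (adjusted p = 0.0862), and it lay above its controls in LKB1 KO livers and below them in RbpJk KO livers on every array. The other 6 were Cldn13 (0.82 ± 0.31), Uros (0.75 ± 0.21), Rhd (0.73 ± 0.29), Tal1 (0.67 ± 0.30), Klf1 (0.67 ± 0.20) and Urod (0.38 ± 0.16). The median over the members was 0.19, and with 1 array left out it ran between 0.05 (without RbpJk KO 3, with 15 positive and 14 negative) and 0.41 (without RbpJk WT 2). It also moved by over 1.5 times without LKB1 WT 1 (0.11), RbpJk WT 1 (0.13), RbpJk WT 3 (0.08), LKB1 WT 2 (0.32), LKB1 KO 3 (0.34) and RbpJk KO 1 (0.37).

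**Figure D3:**
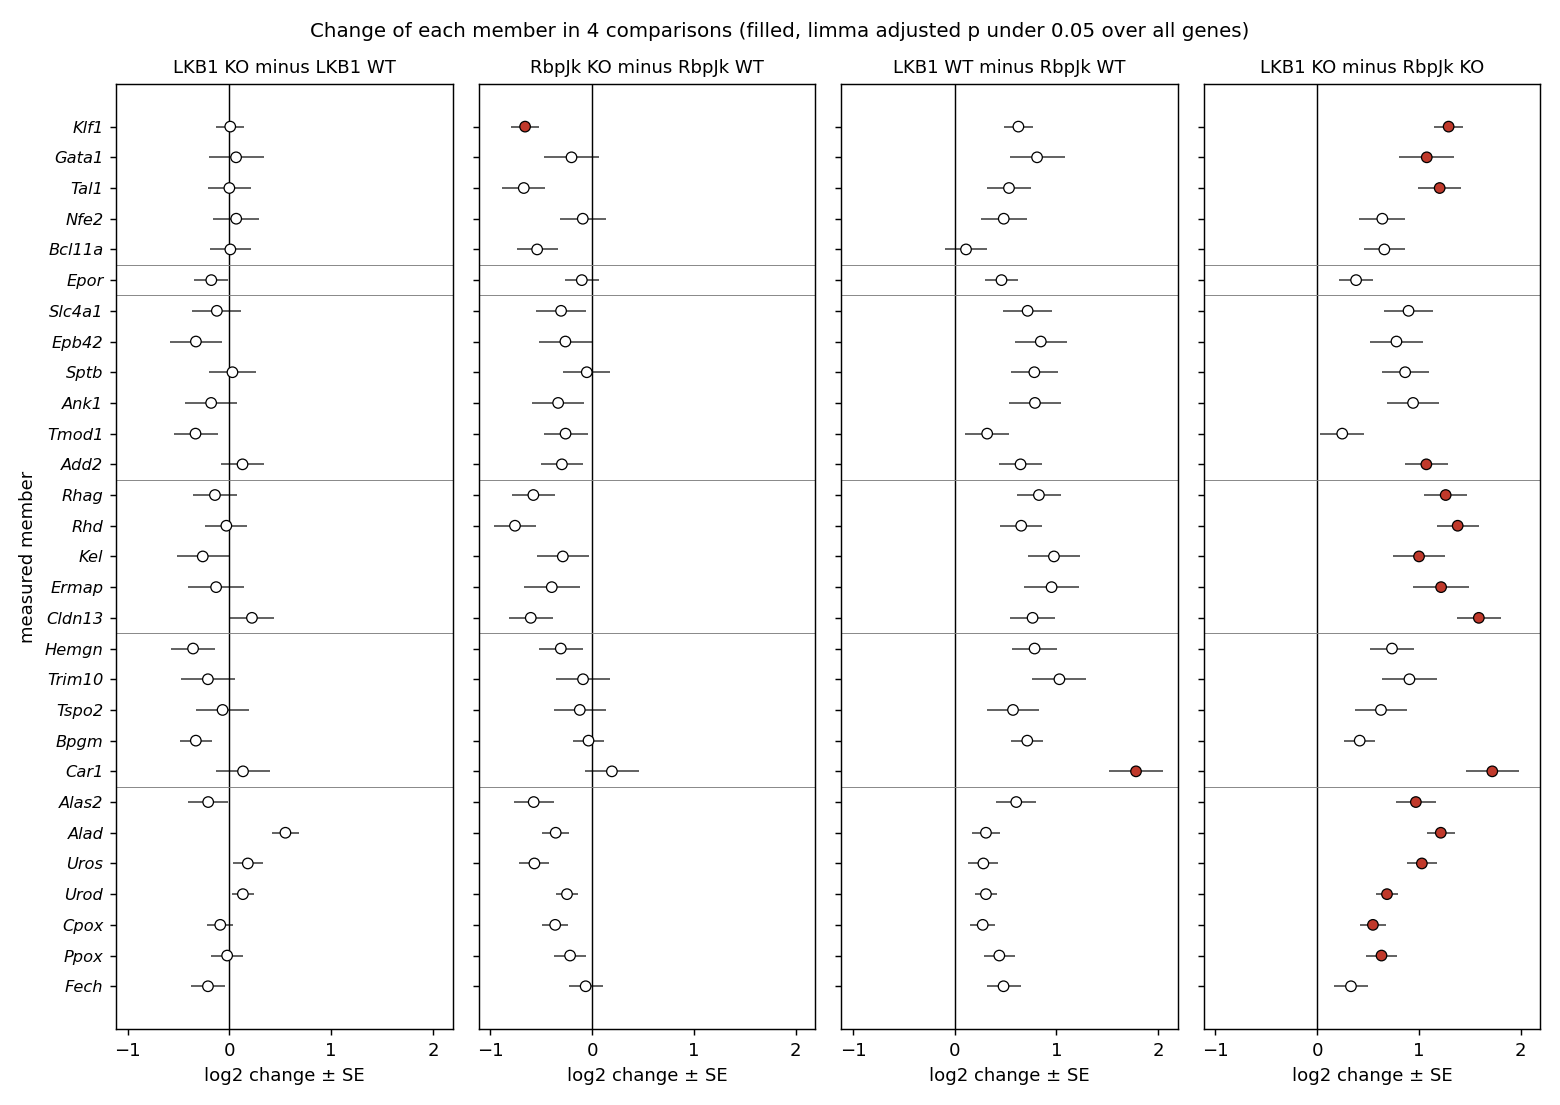
Log2 change with its SE for each of the 29 members in 4 comparisons, on 1 shared axis, with filled points for adjusted p under 0.05. Changes straddle 0 in LKB1 KO against LKB1 WT livers, 28 of 29 are negative in RbpJk KO against RbpJk WT livers, and all 29 are positive in both comparisons between the arms, with 16 filled between the knockouts.

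By median, the members differed further between the arms than between knockouts and controls. LKB1 WT livers had a higher mean than RbpJk WT livers for 29 of 29 members, with a median log2 change of 0.65, whereas the median over all genes was -0.05. The controls did not overlap for 25 members, a pattern shown by 7.05% of all genes, and the exceptions were Bcl11a, Alad, Cpox and Tmod1, which caps actin filaments. By limma 1 member was called, Car1, where 0.367% of all genes were called in this direction and 0.699% in either. An unadjusted p under 0.05 was found for 25 members, beside 12.5% of all genes.

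Car1 was 3.44-fold higher in LKB1 WT than in RbpJk WT livers (log2 change 1.78 ± 0.26, adjusted p = 0.00498). Its levels were 8.62, 9.37 and 9.42 in LKB1 WT livers and 6.99, 7.69 and 7.39 in RbpJk WT livers, and this call held in each alternative tried. Trim10, an erythroid ubiquitin ligase, followed with 7.78, 7.97 and 7.81 in LKB1 WT livers and 7.19, 6.29 and 6.99 in RbpJk WT livers (log2 change 1.03 ± 0.27, adjusted p = 0.107). The changes were 0.98 for Kel, 0.95 for Ermap, 0.85 for Epb42, a partner of the anion exchanger, and 0.81 for Gata1. They were lowest for Tmod1 (0.32), Alad (0.31), Urod (0.31), Uros (0.28), Cpox (0.28) and Bcl11a (0.11), and by role the median was 0.31 over the heme enzymes and 0.75 over the membrane genes.

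The knockout livers were compared in the same way, a comparison added after the difference between the controls had been seen and made on the other 6 arrays. It sets apart livers that differ in the gene deleted as well as in the arm. Of 29 members, 16 were higher in LKB1 KO than in RbpJk KO livers, where 1.59% of all genes were called in this direction and 4.06% in either. All 29 changes were positive, with a median of 0.91, and 23 members did not overlap, where 8.92% of all genes lay above in this way. Without LKB1 KO 1, without LKB1 KO 2 and without RbpJk KO 3, 9, 10 and 9 members were called, and with Xist class as a covariate 11 were.

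All 5 blood group and surface proteins and 6 of 7 heme enzymes were among the 16. Cldn13 was at 8.41, 8.23 and 7.66 in LKB1 KO livers and at 6.90, 6.53 and 6.10 in RbpJk KO livers (3.01-fold, adjusted p = 0.000962). Alas2 was at 9.39, 9.12 and 8.68 in LKB1 KO livers and at 8.49, 7.90 and 7.90 in RbpJk KO livers (1.96-fold, adjusted p = 0.0137). Klf1, whose values are given above, was 2.45-fold higher (adjusted p = 0.000147). Gata1, with 6.93, 6.81 and 6.81 in LKB1 KO livers and 6.10, 6.05 and 5.17 in RbpJk KO livers, was 2.11-fold higher (adjusted p = 0.0395).

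Tal1 (2.30-fold), Rhd (2.60-fold), Rhag (2.40-fold), Ermap (2.33-fold), Kel (log2 change 1.001), Car1 (3.30-fold) and the adducin gene Add2 (2.10-fold) made up the rest of the called members outside the heme pathway. The other called heme enzymes were Alad (2.32-fold), Uros (2.04-fold), Urod (1.61-fold), Ppox (1.55-fold) and Cpox (1.46-fold). Fech, the last enzyme, was not called (log2 change 0.33 ± 0.17, adjusted p = 0.356), nor were 5 of 6 membrane genes, of which Slc4a1, Epb42 and Tmod1 overlapped through LKB1 KO 3. Tspo2, an erythroid relative of the translocator protein, was not called either (log2 change 0.63 ± 0.26, adjusted p = 0.232).

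Not all of the 16 calls held. Klf1, Tal1, Rhag, Rhd, Cldn13, Car1, Alad, Uros and Urod were called in all 14 alternatives. Gata1, Kel and Ppox were called in 7 of 14, Cpox in 8, Ermap in 9, Alas2 in 10 and Add2 in 12. Gata1 was lost with the Xist covariate (adjusted p = 0.0923), with no trend (0.0576) and with any of the 6 arrays but RbpJk KO 1 left out, and over its alternatives the adjusted p ran between 0.012 and 0.142. The highest adjusted p was 0.167 for Kel, 0.134 for Ppox and 0.104 for Cpox.

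Over both comparisons between the arms, 14 of 29 members (48.3%) had all 6 LKB1 arm arrays above all 6 RbpJk arm arrays, and 1.2% of all genes did. They were Klf1, Gata1, Tal1, Sptb, Add2, Rhd, Kel, Ermap, Cldn13, Bpgm, Car1, Uros, Urod and Ppox. The greatest gap was that of Car1, between a lowest level of 8.62 in the LKB1 arm and a highest level of 7.91 in the RbpJk arm. Since the arms may differ in litter, strain and array batch, none of which is labelled, these and the arm cannot be told apart.

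The members moved together across the arrays. A red cell index was taken as the mean, over 21 measured members, of log2 level minus the gene's mean over the 12 arrays. It was 0.63, 0.44 and 0.06 in LKB1 KO livers and 0.27, 0.70 and 0.49 in LKB1 WT livers, and -0.23, -0.52 and -1.01 in RbpJk KO livers and -0.18, -0.55 and -0.10 in RbpJk WT livers. The arms did not overlap in this index, while the groups within each arm did. Each member was set against the index of the others over the 12 arrays. Pearson's r was lowest for Tmod1 (0.76), Alad (0.78), Bcl11a (0.81) and Car1 (0.84) and highest for Kel (0.99), Rhag and Ank1 (0.98 each), as a description of arrays that share their arm.

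Within the arms the likeness was looser for some members. For Alad r was 0.14 over the 6 LKB1 arm arrays and 0.51 over the 6 RbpJk arm arrays, and for Car1 it was 0.51 and 0.24. For Kel it was 0.96 and 0.97, and for Ank1 0.96 and 0.98. The r of Alad within the LKB1 arm was the lowest of the 29 members, and that of Bcl11a was 0.21. The other heme enzymes were at 0.40 (Uros), 0.57 (Urod), 0.77 (Ppox), 0.90 (Cpox), 0.94 (Alas2) and 0.96 (Fech) in that arm. The part of hepatocytes in these values was not tested.

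The genes outside the list that most resembled the index over 12 arrays, of 18332 candidates, were Kcnn4, a potassium channel of the red cell membrane (r = 0.99), Hectd4 (0.99), the carbonic anhydrase gene Car2 (0.98), Pigq, Abcg4, Cd24a, Ctse, Gse1, Abcb10 and Lpcat1 (0.97 to 0.98). Ctse, the protease cathepsin E, was at 9.61, 9.40 and 8.98 in LKB1 KO livers and 9.14, 9.87 and 9.42 in LKB1 WT livers, and at 8.38, 7.69 and 7.16 in RbpJk KO livers and 8.95, 8.18 and 8.57 in RbpJk WT livers. These genes were chosen for their likeness, so their levels are a description.

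**Figure D4:**
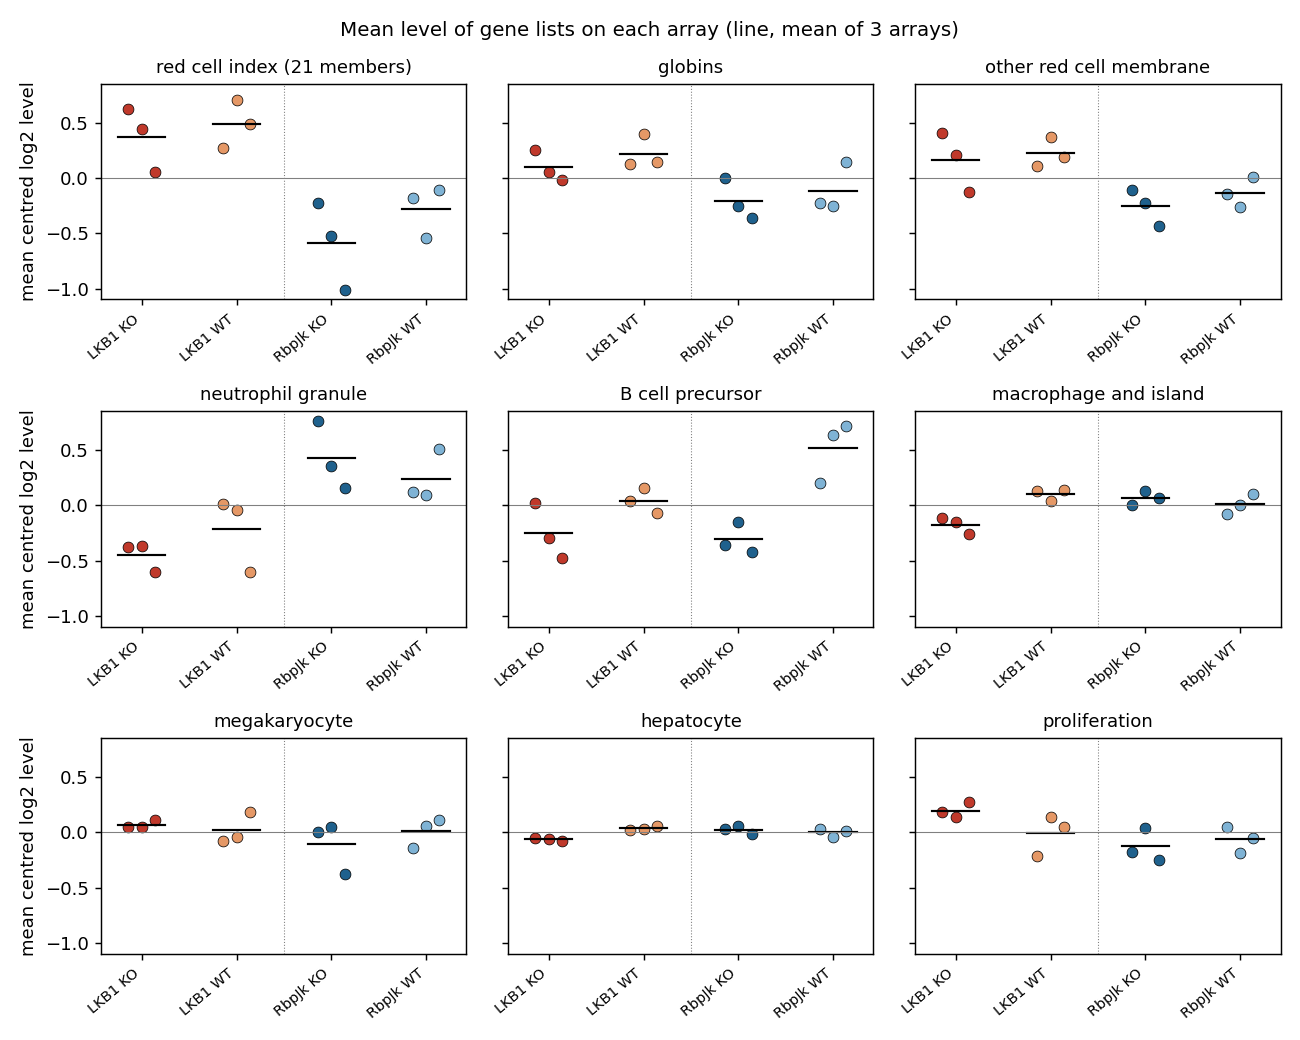
Mean log2 level of the red cell index and 8 gene lists on each array, each gene centred on its mean over 12 arrays, with a line at the mean of 3 arrays. The red cell index lies above 0 on all LKB1 arm arrays and below 0 on all RbpJk arm arrays, the neutrophil granule list lies the other way on all but LKB1 WT 1, and the hepatocyte list lies between -0.08 and 0.06.

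Other genes of red cell formation were described by list. The 8 measured globins had a median change of 0.33 between LKB1 WT and RbpJk WT livers and 0.04 between LKB1 KO and RbpJk KO livers. In each comparison 5 changes were positive and 3 negative. Between the controls 1 was called, Hbb-bs, an adult beta globin (2.32-fold, adjusted p = 0.00675). It was at 12.11, 12.04 and 12.01 in LKB1 KO livers and 11.97, 12.12 and 12.19 in LKB1 WT livers, and at 10.88, 11.13 and 10.29 in RbpJk KO livers and 11.02, 10.47 and 11.15 in RbpJk WT livers. Its probes can share signal with the near-identical beta globin copy, so its level is uncertain. Hbb-b1, the other bright beta globin measured, overlapped between the knockouts. It was at 10.79 to 10.90 in LKB1 KO, 10.94 to 11.15 in LKB1 WT, 10.60 to 11.06 in RbpJk KO and 10.38 to 10.91 in RbpJk WT livers. The embryonic globins Hbb-y and Hbb-bh1 were dim on every array, between 2.54 and 3.72.

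Of 14 other membrane and surface genes, 2 were called between the controls, the water channel Aqp1 (1.87-fold) and the urea transporter Slc14a1 (1.76-fold), and 5 between the knockouts, those 2 with Dmtn, Icam4 and Kcnn4. Among 16 other erythroid regulators 0 were called in either knockout by limma, and 0 and 6 had an unadjusted p under 0.05 in LKB1 KO and RbpJk KO livers. Gfi1b, an erythroid repressor, was at 7.03, 6.68 and 6.63 in RbpJk KO livers and at 7.57, 7.26 and 7.34 in RbpJk WT livers (log2 change -0.61 ± 0.15, adjusted p = 0.0558). It was 2.53-fold higher in LKB1 KO than in RbpJk KO livers (adjusted p = 0.00019), and Zfpm1, the cofactor of Gata1, was the other regulator called there (1.52-fold). The 16 regulators were of mixed sign there, with 11 changes positive and 5 negative (median 0.19), and 9 overlapped. Between the controls 12 were positive and 4 negative (median 0.30), with 0 called by limma and 8 at an unadjusted p under 0.05.

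Of 15 other maturation genes 1 was called in LKB1 KO livers, where the pyruvate kinase Pklr, which hepatocytes also make, rose 1.64-fold (adjusted p = 0.0497). Between the controls 14 of these 15 genes were higher by mean in LKB1 WT livers (median 0.57), 10 lay above without overlap and 13 had an unadjusted p under 0.05. Of all genes, 41.1% were higher by mean, 7.05% lay above without overlap and 12.5% had an unadjusted p under 0.05. The 1 called there was Pklr in the other direction, at 7.68, 7.57 and 7.48 in LKB1 WT livers and 8.31, 8.15 and 8.66 in RbpJk WT livers (log2 change -0.80 ± 0.16, adjusted p = 0.0303). Between the knockouts Slc43a1, an amino acid transporter, was called (2.36-fold higher in LKB1 KO livers). There 13 of the 15 genes were higher by mean (median 0.43), 4 lay above without overlap and 8 had an unadjusted p under 0.05. For all genes these last 2 shares were 8.92% and 16.1%. In the LKB1 arm Aqp9, an aquaporin of hepatocytes as well as red cells, fell 1.51-fold (adjusted p = 0.00626) as the 1 called gene of the other membrane list. Of 10 genes of iron uptake, 0 were called in either knockout by limma, with 1 and 3 at an unadjusted p under 0.05 in LKB1 KO and RbpJk KO livers. Between the knockouts 1 was called, the iron reductase Steap3 (1.45-fold higher in LKB1 KO livers), while 4 of the 10 changes were positive and 6 negative (median -0.04). The transferrin receptor Tfrc was at 8.73, 8.95 and 8.28 in RbpJk KO livers and at 9.51, 8.94 and 9.46 in RbpJk WT livers (log2 change -0.65 ± 0.18, adjusted p = 0.106).

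The 19 other genes of heme synthesis, transport and breakdown were of mixed sign. Of these 0 were called in either knockout by limma, 2 and 4 had an unadjusted p under 0.05 in LKB1 KO and RbpJk KO livers, and their median changes were -0.05 and 0.06. Alas1, the form of the first enzyme that hepatocytes use, was at 0.23 ± 0.18 in LKB1 KO and 0.06 ± 0.18 in RbpJk KO livers. Hmox1, which breaks heme down, was at 10.23, 10.13 and 10.02 in RbpJk KO livers and at 9.49, 9.44 and 9.94 in RbpJk WT livers (log2 change 0.50 ± 0.12, adjusted p = 0.0513). Abcb10, a mitochondrial transporter needed for heme synthesis, was higher in LKB1 KO than in RbpJk KO livers (log2 change 1.0 ± 0.17, adjusted p = 0.00478). It was the 1 called there, and over the 19 genes 9 changes were positive and 10 negative (median -8.3e-05). Between the controls 15 were positive and 4 negative (median 0.10), with 0 called by limma and 7 at an unadjusted p under 0.05.

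Epo, the hormone that drives red cell formation, is made in the fetal liver before the kidney takes over. It was at 4.97, 4.21 and 4.32 in RbpJk KO livers and at 5.83, 5.24 and 5.02 in RbpJk WT livers, without overlap and without a call (log2 change -0.86 ± 0.25, adjusted p = 0.118). LKB1 WT livers, at 4.75, 4.13 and 4.40, lay below RbpJk WT livers as well (log2 change -0.94 ± 0.25, adjusted p = 0.127). Epo was dim on all arrays, and these values missed the threshold.

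Between the arms, other cell types moved beside the erythroid genes. All 11 neutrophil granule markers lay lower in LKB1 KO than in RbpJk KO livers without overlap, where 13.7% of all genes lay below in this way. Of the 11, 5 were called (S100a8, S100a9, Ltf, Ngp and Lcn2), where 2.48% of all genes were called in this direction. The summed level of the 11 markers reached 13 at most in LKB1 KO livers and lay between 13.56 and 13.95 in RbpJk KO livers. Between the controls 11 of 11 changes were negative and Lcn2 was called, where 0.332% of all genes were called in this direction. Summed levels there were 12.89 to 13.33 in LKB1 WT and 13.49 to 13.72 in RbpJk WT livers. Of 12 macrophage markers 3 were lower in LKB1 KO than in RbpJk KO livers (Cd5l, C1qb and Marco) and 1 was higher (the iron exporter Slc40a1), 7 lay below without overlap and the median was -0.27, at summed levels of 11.56 to 11.65 in LKB1 KO and 11.76 to 11.94 in RbpJk KO livers. Slc40a1 was higher between the controls as well (log2 change 0.58 ± 0.12), where the dim B cell precursor gene Igll1 was lower (log2 change -1.10 ± 0.15). The 13 proliferation genes were all higher by mean in LKB1 KO than in RbpJk KO livers, with 2 called (Ccnb2 and Ccna2) and summed levels of 11.92 to 12.05 in LKB1 KO and 11.53 to 11.83 in RbpJk KO livers. The 10 megakaryocyte markers were of mixed sign between the knockouts, with 7 changes positive and 3 negative (median 0.18), and 1 was called, Ppbp, which was higher in LKB1 KO livers. All 7 mast cell markers had a negative change there (median -0.22), and 1 was called, Hdc. Hepatocyte markers differed by a median of 0.06 between the controls and -0.05 between the knockouts, and 0 of 9 were called by limma in either, with 0 and 2 at an unadjusted p under 0.05. The part of these cells in the erythroid difference was not tested.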

How the data were processed

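Total RNA from 12 livers was labelled as sense-target cDNA and hybridised to Affymetrix whole-transcript arrays, 1 liver to an array. The deposited log2 expression values (1.185 to 12.97) were used as the authors made them. The submitters' notes name Partek, and the background correction and normalization were not stated. The values carry no detection call, and precision is limited by having 3 arrays a group. Of 25206 probe sets, 23185 had 1 gene symbol and 2021 had none. Symbols were checked by Entrez ID against RefSeq (GRCm38.p6), from which promoters were taken.

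A group-means model over the 12 arrays was fitted with limma 3.58.1 (R 4.3.3; eBayes with an intensity trend), and p-values were adjusted by Benjamini-Hochberg over 23185 genes. The test was tried on simulated data. Figures were drawn with matplotlib 3.10.9. Alternatives were the 6 arrays alone, no trend, array weights, a minimum mean of 5, quantile normalization, median centring, all probe sets, Xist class as a covariate (high above 8) and each array left out.

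Members and lists were chosen with earlier results of these data known. The knockout-to-knockout comparison, and the counts of groups without overlap, were added after the data were seen. Named genes were all measured members, the called genes of 14 lists (155 of 173 genes measured) or else those with the smallest p, and the 10 genes most like the red cell index. The index leaves out the heme enzymes shared with hepatocytes, Bcl11a and Add2.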

Additional observations from a re-analysis of the deposited data

Results flagged for a closer look

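Alad was singled out because its knockout effects differed in direction between the arms, with every LKB1 KO array above every LKB1 WT array and every RbpJk KO array below every RbpJk WT array. The difference of the effects was 0.907 on the log2 scale (SE 0.19) and missed the threshold in limma over all genes (adjusted p = 0.0862). It passed in 2 of 19 alternatives, after quantile normalization (0.98, adjusted p = 0.0323) and without RbpJk KO 2 (1.03, adjusted p = 0.0494). Over the 19 the difference lay between 0.75 and 1.03 and the limma adjusted p reached 0.202.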

How the results depend on the processing

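No paired analysis was possible because replicate numbers in the labels do not tie a mouse of one group to a mouse of another. The count of genes called in LKB1 KO livers was 223 and became 131 with no intensity trend, 512 with array weights, 132 with Xist class as a covariate and 106 to 183 with an array left out. In RbpJk KO livers it was 390 and became 157 with the 6 arrays alone, 259 with array weights, 602 with median centring, 187 with the Xist covariate and 194 to 465 with an array left out. Median centring moved the RbpJk split to 482 higher and 120 lower, in place of 259 and 131. Members called in LKB1 KO livers were 0, and 1 (Alad) with array weights, the minimum mean, quantile normalization or median centring, and 0 with any array left out. In RbpJk KO livers 1 was called, and 0 with the 6 arrays alone, array weights or the Xist covariate, 2 with the minimum mean and 0 to 4 with an array left out. Members below their RbpJk controls without overlap were 5 to 19, and the share of all genes was not counted in the alternatives. For the difference of the effects the count was 0, and 1 with quantile normalization and 0 to 1 with an array left out. The 6 arrays alone could not be fitted for it. Between the controls 1 member was called, and 2 with the 6 arrays alone or quantile normalization, 3 with the minimum mean or median centring and 1 to 2 with an array left out. Between the knockouts 16 were called, and 9 to 20 with an array left out, 11 with the Xist covariate, 12 with no trend and 22 with array weights. No called member changed sign in the alternatives run, and the cause of these shifts was not tested. Without a detection call, dim genes such as Rbpj and Epo cannot be set against background.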
